A study of Mus musculus with 6 samples.

Results

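The immediate early genes examined here were 10 genes for transcription factors of 3 families: Egr1, Egr2 and Egr3, Nr4a1, Nr4a2 and Nr4a3, and the AP-1 genes Fos, Fosb, Jun and Junb. They were taken by name from the 12394 genes measured, and each was read on the probe set with the highest mean over the arrays among those annotated to that gene alone. All 10 were measured, on 14 probe sets in all. The arrays hold RNA of regulatory T (Treg) cells, the CD4 T cells that restrain immune responses, sorted as CD4+CD25+YFP+ cells from mouse spleen and lymph nodes. In both groups a Cre recombinase joined to YFP was expressed from Foxp3, so deletion was directed to cells that had expressed Foxp3. The 3 arrays of the Gata3-deficient group came from Gata3F/FFoxp3YFP-Cre mice, in which both Gata3 alleles carried the loxP-flanked (floxed) segment. The 3 arrays of the Gata3-sufficient group came from Gata3F/+Foxp3YFP-Cre mice, titled WT, which had 1 floxed allele and the same Cre. The design text gives 3 mice per group; ages are not given in the sources used here. All values are log2 intensities, a change is the mean of the deficient arrays minus the mean of the sufficient arrays, and a change passed the test when its p from limma, after Benjamini-Hochberg adjustment over all genes, was under 0.05.

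Immediate early genes are transcribed within minutes of a signal without new protein synthesis. In T cells the antigen receptor drives them through calcium and the phosphatase calcineurin, which activates NFAT, and through Ras and MAP kinases, which act on the serum response factor SRF and its partners. Egr proteins are zinc finger factors that restrain as well as promote T cell activation, Nr4a proteins are orphan nuclear receptors known for sustaining Treg identity, and Fos and Jun proteins pair into the AP-1 factor. Tissue dissociation, warming and sorting also induce these genes, so the spread between arrays is given beside each comparison.

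The start regions of the 4 AP-1 genes are shown because Fos, Fosb and Jun had the widest spread between arrays. On the probe sets read for each gene they also moved together over the arrays. Each run holds the 150 bases before the RefSeq start (GRCm38.p6), 5′ to 3′ on the gene's strand. Capitals mark TGACG (on either strand), the core of the cAMP response element, and, in Jun, the AP-1-like element TGACATCA; these 2 motifs do not overlap.
Fos, chr12:85473740-85473889, plus strand: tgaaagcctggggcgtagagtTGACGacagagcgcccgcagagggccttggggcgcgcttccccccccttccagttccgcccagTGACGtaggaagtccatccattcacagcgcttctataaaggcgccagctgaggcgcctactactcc
Fosb, chr7:19310046-19310195, minus strand: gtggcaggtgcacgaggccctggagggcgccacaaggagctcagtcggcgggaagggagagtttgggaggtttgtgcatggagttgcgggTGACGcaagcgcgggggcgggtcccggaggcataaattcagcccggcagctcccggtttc
Jun, chr4:95052223-95052372, minus strand: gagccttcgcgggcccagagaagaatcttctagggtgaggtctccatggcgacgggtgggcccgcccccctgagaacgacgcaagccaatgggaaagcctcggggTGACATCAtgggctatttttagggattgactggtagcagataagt
Junb, chr8:84978749-84978898, minus strand: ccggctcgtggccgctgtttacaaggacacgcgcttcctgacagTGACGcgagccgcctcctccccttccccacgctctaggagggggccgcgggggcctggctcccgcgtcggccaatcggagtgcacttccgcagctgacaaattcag

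Of the 10 genes 8 matched an entry in the RefSeq table of start regions; Egr1 and Egr3 did not. Over the 250 bases before the start, the TGACG core was found in 6 of the 7 genes with 1 listed start (Fos, Fosb, Junb, Nr4a1, Nr4a2 and Nr4a3) and at 3 of the 5 listed starts of Egr2, against 17.8% of 32851 mouse start regions. In Fos it lay 66 to 62 and 129 to 125 bases before the start, in Fosb 60 to 56 bases and in Junb 106 to 102 bases. The TGACATCA element of Jun lay 45 to 38 bases before the start, and 2.93% of start regions held it. The CArG box, the sequence bound by SRF, was found at 4 of the 5 starts of Egr2 and in 1.47% of start regions. Among the 8 genes only Egr2 held it, and bases further upstream were not searched. The 3 Egr2 starts with the TGACG core lie close together, and their windows hold the same TGACG sites and the same CArG box. The counts over Egr2 starts are therefore not counts of separate sites. The full cAMP response element, the AP-1 site and the NBRE of Nr4a proteins were found in none of the 8 genes. Of all start regions 1.55%, 6.75% and 1.34% held them. The Egr site was found in Fosb, Nr4a1 and Nr4a2 and in 4.7% of start regions. These matches are letters in a window and do not show that a factor was bound in these cells.

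The probe set of the targeted gene did not show a loss. Gata3 read 9.57, 9.41 and 9.47 in the sufficient arrays and 9.83, 9.98 and 9.71 in the deficient arrays (log2 change 0.35 ± 0.07, SE, limma adjusted p = 0.0387), so the direction of every change below rests on the labels. The labels do not say which segment of Gata3 is floxed; if the probes lie elsewhere in the gene, their signal cannot check the genotypes. Array medians lay between 6.06 and 6.11. Among 9 markers of Treg and CD4 T cells, Cd3d, Cd3g and Ctla4 were bright (means 12.84, 12.01 and 11.97), while Foxp3 was dim, at 3.92. A probe set is called dim when its mean was below 5.55, the 40th percentile of all genes. Of 6 measured B cell markers 4 were dim, of 10 myeloid and dendritic cell markers 5, of 5 CD8 T and NK cell markers 3, of 5 stromal markers 4, and all 7 neutrophil and all 4 erythroid and platelet markers were dim. None of these 46 marker genes passed the test. Their largest changes were nonetheless larger than those of the immediate early genes. The neutrophil marker S100a9 was 1.10 higher in the deficient arrays (limma adjusted p = 0.113) and the myeloid marker Lyz2 1.02 higher (0.0849). The largest decrease was -0.57, for Klrk1 (0.121).

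None of the 10 immediate early genes passed the test between the groups, where 2.21% of all genes did. At an unadjusted p under 0.05 limma had 2 of the 10, Egr1 lower and Fosb higher in the deficient arrays, beside 14.4% of all genes. The smallest adjusted p was 0.141, for Egr1. The median log2 change was -0.066 over the 10 genes and 0.0078 over all genes, with 6 changes below 0 and 4 above; 47% of all genes had a change below 0. The 2 groups did not overlap for 1 of the 10, Egr1, and for 19.8% of all genes. The 95% intervals of limma, not adjusted for the number of genes, lay within a 1.5-fold change in either direction for 8 genes, the exceptions being Fosb and Jun. An adjusted p over the threshold does not show that a gene had the same level in both groups. The p values rest on the spread between 3 arrays a group, which limma moderates toward that of genes of like intensity. Fewer cells expressing a gene cannot be told apart from less RNA per cell in these bulk samples.

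**Figure D1:**
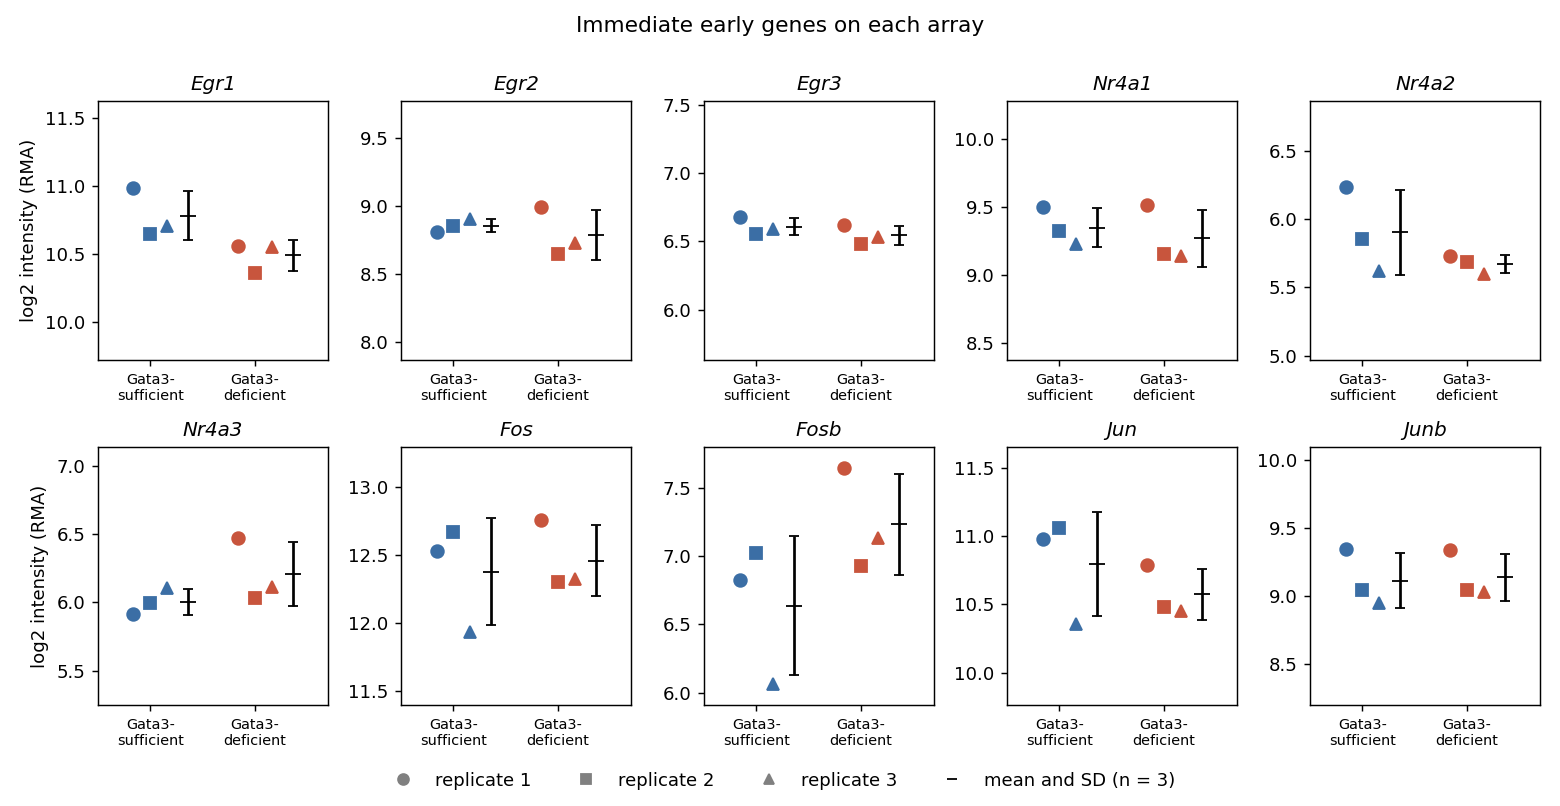
Log2 intensity of each of the 10 genes on the 6 arrays; every panel spans the same height, points are arrays with the symbol giving the replicate number, and black bars give the mean and SD over 3 arrays. Egr1 is the one gene whose groups do not overlap, and sufficient replicate 3 lies low in Fos, Fosb and Jun.

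**Figure D2:**
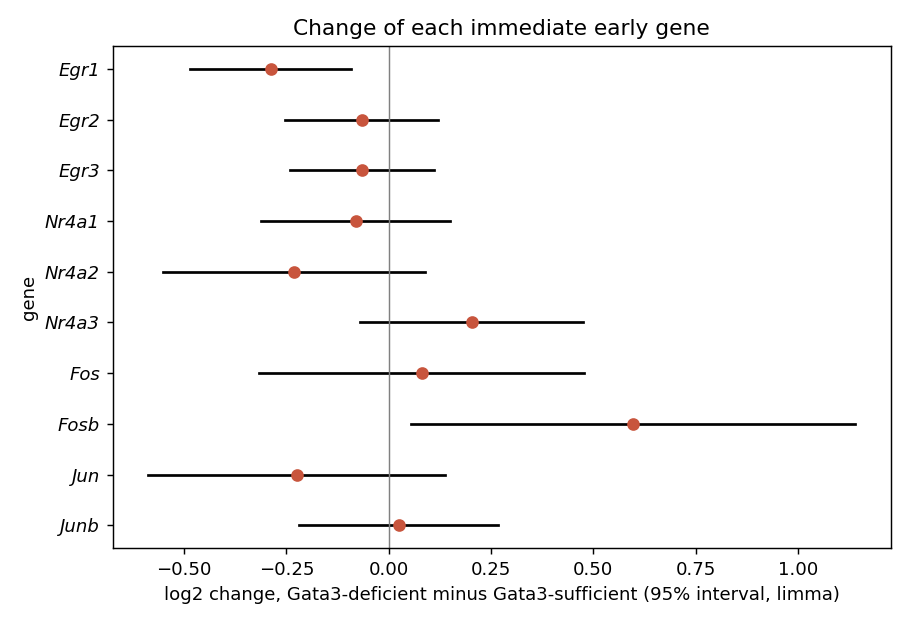
Log2 change of each gene (point) with limma's 95% interval (line), deficient minus sufficient arrays. The intervals of Egr1 and Fosb leave out 0 on opposite sides, and neither gene passed the test after adjustment over all genes.

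Egr1, the best known early growth response gene, had the nearest to a called decrease. It read 10.98, 10.65 and 10.71 in the sufficient arrays and 10.56, 10.36 and 10.55 in the deficient arrays. All 3 deficient arrays were below all 3 sufficient arrays, and sufficient replicate 1 stood above the rest of its group. The log2 change was -0.29 ± 0.09 (SE, 95% interval -0.48 to -0.09, limma adjusted p = 0.141). With 1 array left out at a time the change ran from -0.36 to -0.19, and its adjusted p from 0.172 to 0.372.

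Egr2 and Egr3, which in T cells limit activation and support tolerance, showed smaller differences. Egr2 read 8.81, 8.85 and 8.90 in the sufficient and 8.99, 8.65 and 8.72 in the deficient arrays, so that the highest and the lowest value both lay in the deficient group. Its log2 change was -0.066 ± 0.08 (SE, limma adjusted p = 0.795). A second Egr2 probe set read 8.63, 8.64 and 8.63 against 8.39, 8.47 and 8.58. There the groups did not overlap, but the change of -0.15 ± 0.06 (SE) did not pass (limma adjusted p = 0.291 over 20393 probe sets, of which 1.69% passed). The Egr2 probe sets also disagreed on deficient replicate 1, the highest array of its group on the first and the lowest on the second.
Egr3 read 6.68, 6.56 and 6.59 in the sufficient and 6.62, 6.48 and 6.53 in the deficient arrays. Its groups overlapped, its log2 change was -0.065 ± 0.08 (SE, limma adjusted p = 0.784), and its interval of -0.24 to 0.11 was the narrowest of the 10 genes.

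Fos, whose protein is the classical partner of Jun in AP-1, read 12.53, 12.67 and 11.93 in the sufficient and 12.76, 12.30 and 12.32 in the deficient arrays. Sufficient replicate 3 was the lowest and deficient replicate 1 the highest of the 6, and the groups overlapped. The log2 change was 0.08 ± 0.18 (SE, 95% interval -0.32 to 0.48, limma adjusted p = 0.89). Its sign turned to -0.14 without sufficient replicate 3, to -0.069 without deficient replicate 1 and to -0.063 with array quality weights, so no direction is given for Fos.

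Fosb, a Fos paralog, had the largest change of the 10 genes and the largest error. It read 6.82, 7.03 and 6.06 in the sufficient and 7.65, 6.93 and 7.13 in the deficient arrays. As with Fos, sufficient replicate 3 was lowest and deficient replicate 1 highest, and the groups overlapped through sufficient replicate 2 and deficient replicate 2. The log2 change was 0.60 ± 0.24 (SE), a 1.51-fold difference with a 95% interval from 0.05 to 1.14 (limma adjusted p = 0.287). Without sufficient replicate 3 it was 0.31 (adjusted p = 0.511) and without deficient replicate 1 it was 0.39 (0.514), while without sufficient replicate 2 it was 0.79 (0.286).

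Jun, the AP-1 subunit that can also pair with itself, read 10.98, 11.06 and 10.36 in the sufficient and 10.79, 10.48 and 10.45 in the deficient arrays. Sufficient replicates 1 and 2 were above all deficient arrays and sufficient replicate 3 below them. The log2 change was -0.23 ± 0.16 (SE, limma adjusted p = 0.603) and -0.44 without sufficient replicate 3 (adjusted p = 0.0712). A second Jun probe set read 8.72, 8.59 and 8.07 against 8.14, 7.96 and 8.16, with a change of -0.38 ± 0.14 (SE, limma adjusted p = 0.27). Sufficient replicate 3 was again the lowest of its group there, but deficient replicate 1, the highest of its group on the first probe set, lay between the other two.
Junb, an AP-1 subunit known for a role in effector Treg cells, read 9.34, 9.05 and 8.95 in the sufficient and 9.34, 9.04 and 9.03 in the deficient arrays. Replicate 1 was the highest array in both groups, and the sufficient and deficient means were 9.11 ± 0.20 and 9.14 ± 0.17 (SD, n = 3 each). The log2 change was 0.024 ± 0.11 (SE, 95% interval -0.22 to 0.27, limma adjusted p = 0.95). It changed sign in 4 of 15 other settings, with values from -0.076 to 0.14, so no direction is given for Junb.

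The Nr4a genes went in different directions, and none passed. Nr4a1, whose product Nur77 is used as a reporter of recent antigen receptor signals, read 9.50, 9.32 and 9.23 in the sufficient and 9.51, 9.15 and 9.14 in the deficient arrays. Replicate 1 was highest in both groups, at almost the same value, and the log2 change was -0.08 ± 0.10 (SE, limma adjusted p = 0.801). Nr4a2 read 6.24, 5.85 and 5.62 in the sufficient and 5.73, 5.69 and 5.60 in the deficient arrays. Its spread lay mainly in the sufficient group, with an SD of 0.31 against 0.07, and its log2 change was -0.23 ± 0.14 (SE, limma adjusted p = 0.528). The second Nr4a2 probe set was dim, had sufficient replicate 1 highest as well (6.13), and changed by -0.20 ± 0.26 (SE). Nr4a3 read 5.91, 5.99 and 6.10 in the sufficient and 6.47, 6.03 and 6.11 in the deficient arrays. Deficient replicate 1 stood above the other 5 arrays, and the log2 change of 0.20 ± 0.12 (SE, limma adjusted p = 0.512) was 0.069 without it. The second Nr4a3 probe set was dim, with a mean of 3.17 and a change of 0.08 ± 0.10 (SE).

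The spread between arrays of the same group was wide for most of these genes. The residual SD, which is the SD left within groups, had a median of 0.18 over the 10 genes and 0.10 over all genes, and 9 of the 10 were above that median. Fosb had a residual SD of 0.44, Fos 0.33 and Jun 0.30, and only 0.355%, 0.928% and 1.41% of all genes had a larger one. Since the residual SD falls with intensity, each gene was also set beside genes with a mean within 0.5 of its own. None of the 85 genes near Fos had a larger residual SD, and of the genes near Fosb, Jun, Junb, Nr4a1 and Egr1 0.287%, 0.931%, 2.69%, 3.11% and 4.59% did. Egr3 was the exception, with a residual SD of 0.068, and 82.6% of genes of like intensity had a larger one. Between the lowest and highest sufficient arrays Fosb differed 1.95-fold, Fos 1.67-fold, Jun 1.62-fold and Nr4a2 1.53-fold. Each of these ranges was larger than the same gene's difference between the group means.

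**Figure D3:**
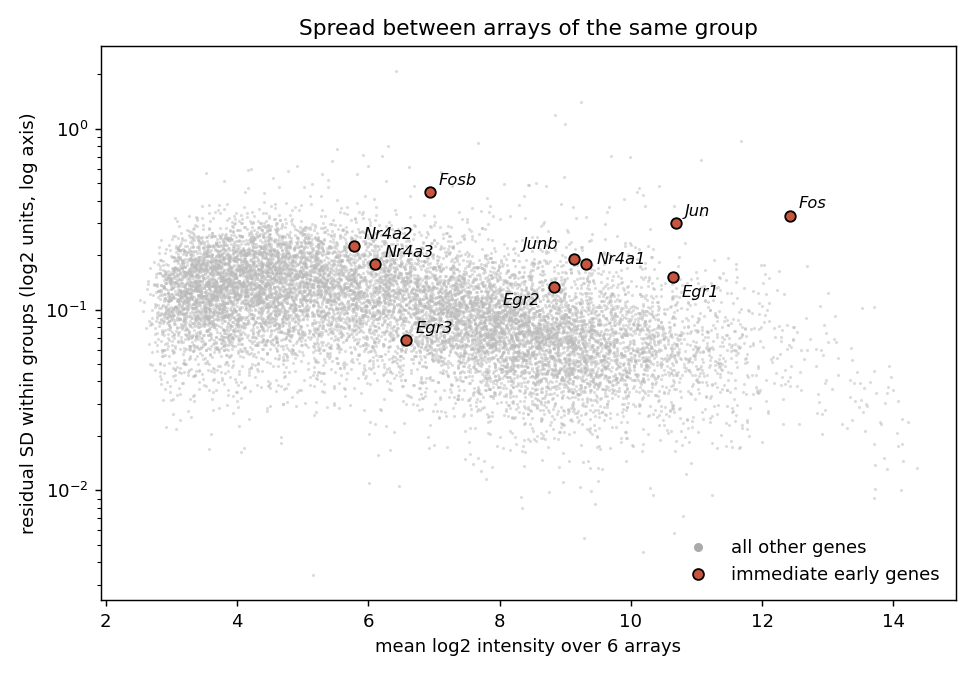
Residual SD within groups (log axis) against mean log2 intensity for all genes (grey) and the 10 immediate early genes (red). Fos, Fosb and Jun lie along the upper edge of the cloud at their intensity, with residual SDs of 0.33, 0.44 and 0.30, and Egr3 lies in its lower part at 0.068.

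The genes deviated together by array. On the main probe sets, all 10 genes were above their group mean in deficient replicate 1, by 0.06 to 0.41 (median 0.21). There 48.9% of all genes were above theirs. The second Egr2 probe set had this array lowest of its group, at 8.39 against 8.47 and 8.58. The second Jun probe set had it between the other deficient arrays. In deficient replicates 2 and 3, 9 of the 10 genes were below their group mean on the main probe sets, with medians of -0.12 and -0.10. With 3 arrays, 1 high array places the other arrays low, so these counts are not separate facts. Among the sufficient arrays, 8 genes were above the group mean in replicate 1, the exceptions being Egr2 and Nr4a3, and 8 were below it in replicate 3, again all but Egr2 and Nr4a3. Sufficient replicate 2 divided the AP-1 genes. Fos, Fosb and Jun were above the group mean by 0.29, 0.39 and 0.26. The other 7 genes, Junb among them, were below it by at most 0.13. On the main probe sets Fos, Fosb and Jun had the same order of arrays in the sufficient group, replicate 3 lowest and replicate 2 highest. The second Jun probe set also had replicate 3 lowest but replicate 1 highest.

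**Figure D4:**
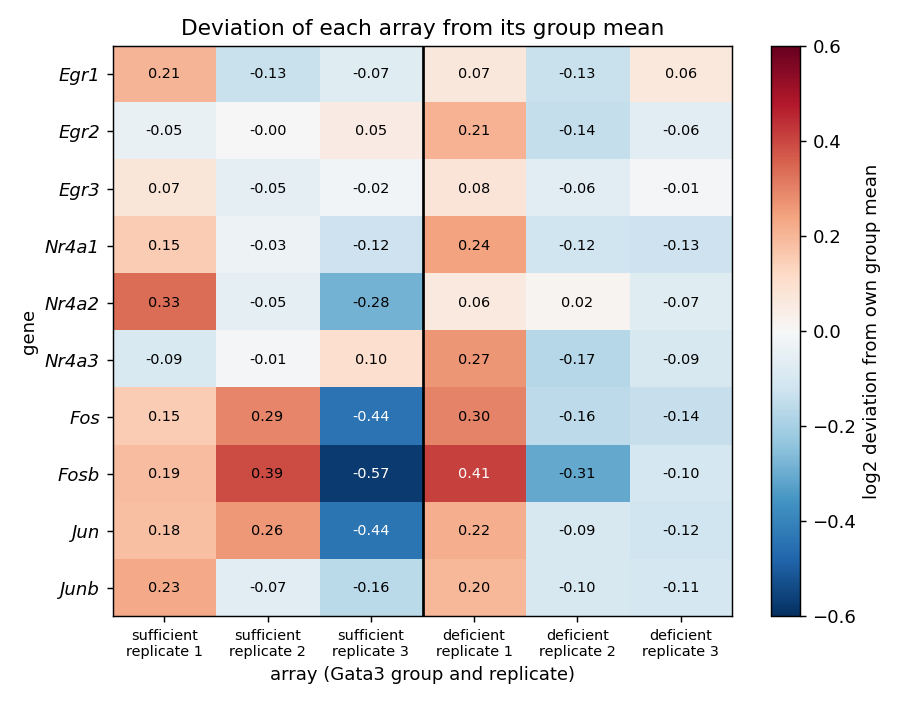
Deviation of each array from the mean of its own group (log2 units; red above, blue below), with genes in rows and arrays in columns. On the main probe sets shown, deficient replicate 1 is above its group mean for all 10 genes. The second Egr2 probe set, not shown, had that array lowest of its group. Sufficient replicate 3 is furthest below for Fosb, Fos and Jun, at -0.57, -0.44 and -0.44.

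The difference between Fos and Jun varied less within each group than either gene did on the main probe sets, and it did not overlap between the groups. Fos minus Jun was 1.55, 1.61 and 1.57 in the sufficient and 1.97, 1.82 and 1.87 in the deficient arrays, with means of 1.58 ± 0.03 and 1.88 ± 0.07 (SD, n = 3 each). With the second Jun probe set the groups did not overlap either, at 3.81, 4.08 and 3.86 against 4.62, 4.34 and 4.16. The SDs were larger, 0.14 and 0.23. In the deficient arrays that difference varied more than the second Jun probe set itself (8.14, 7.96 and 8.16), so the smaller variation holds only on the main probe sets. Fos minus Fosb was 5.71, 5.64 and 5.87 in the sufficient and 5.11, 5.37 and 5.19 in the deficient arrays. A difference within an array shows unequal change of the 2 probe sets and not which of them changed. The exact two-sided permutation test gave p = 0.1 for both pairs, the smallest that 3 arrays against 3 allow, and 0.321 after adjustment over the 45 pairs of the 10 genes. Of those pairs 14, or 31.1%, did not overlap between the groups. Each gene enters 9 pairs, and Fosb was in 6 of the 14 and Egr1 in 4, their own pair being counted in both. The share over all pairs of measured genes was not computed, so 31.1% cannot be read as a trait of these genes. Set against every other gene measured, Fos gave differences that did not overlap for 0.831% of 12393 genes, where Jun did so for 2.24%, Fosb for 22.5% and Egr1 for 51.7%. Such a share depends on the gene's own spread and overlap, so it is no reference rate for 2 genes that move together. The pairs Fos minus Jun and Fos minus Fosb were singled out after their values were seen.

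**Figure D5:**
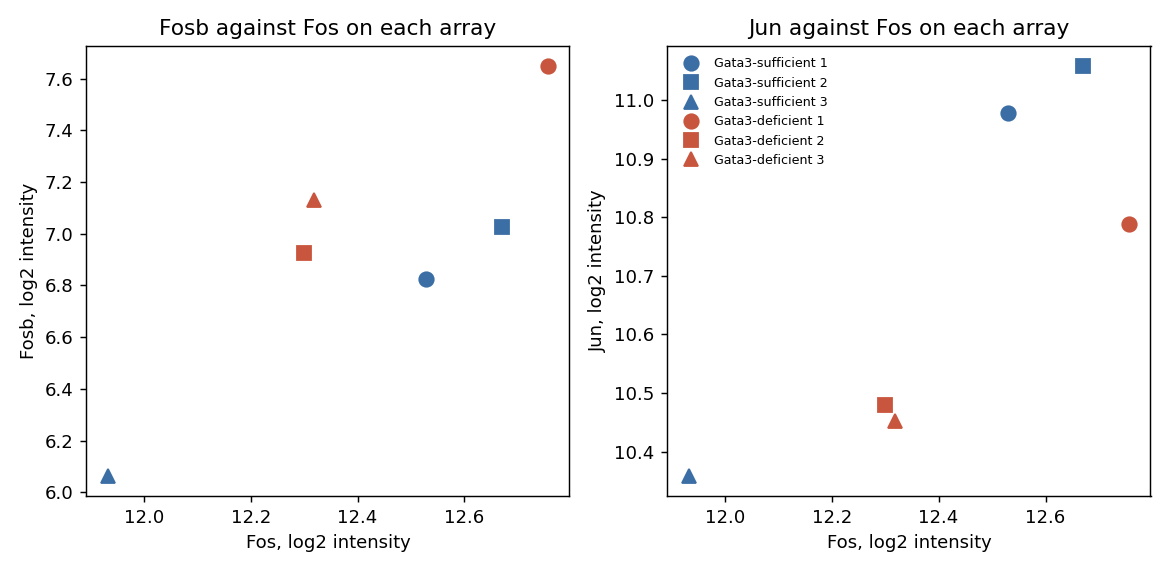
Fosb (left) and Jun (right) against Fos on each array, in log2 intensity; colour gives the group and the symbol the replicate. Fos minus Fosb was 5.64 to 5.87 in the sufficient and 5.11 to 5.37 in the deficient arrays, and Fos minus Jun was 1.55 to 1.61 and 1.82 to 1.97.

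The heat shock genes and the summed myeloid and neutrophil markers were set beside the immediate early genes array by array. The summed intensity of the myeloid and dendritic cell markers was 598 to 655 in the sufficient and 623 to 857 in the deficient arrays, and deficient replicate 1, the highest in the immediate early genes, had the lowest sum of its group. In the sufficient group the myeloid sum was highest in replicate 1 (655), where 8 of the 10 immediate early genes were above their group mean. The neutrophil markers summed to 169 to 190 and 197 to 354, also with deficient replicate 1 lowest of its group. Sufficient replicate 1 had the lowest neutrophil sum of its group (169). The part of other cell types in these differences was not tested. The 12 measured heat shock genes, which encode chaperones and respond to handling, deviated from their group mean by 0.23 on average in deficient replicate 1 (9 of 12 above it) and by 0.23 in sufficient replicate 2 (11 of 12 above it). Those means rest mainly on Hspa1a and Hspa1b, near-identical copies whose signals cannot be fully separated; the medians were 0.098 and 0.086. Hspa1a deviated by -0.31, 1.16 and -0.85 in the sufficient and by 1.20, -0.30 and -0.89 in the deficient arrays, and Hspa1b by -0.20, 0.88 and -0.69 and by 1.03, -0.36 and -0.68. Both thus had sufficient replicate 2 and deficient replicate 1 highest and sufficient replicate 3 lowest, as Fos, Fosb and Jun did on the main probe sets. Hspa1a and Hspa1b were named after their values were seen. Hsph1 and Dnaja1 had a different order, with sufficient replicate 1 and deficient replicate 1 lowest. In sufficient replicate 3, where Fos, Fosb and Jun were lowest, 7 of the 12 heat shock genes were above their group mean (median 0.091). In sufficient replicate 1, where Fos, Fosb and Jun were above their group mean, only 3 of the 12 were above theirs (median -0.20). All 12 heat shock genes had a change below 0 between the groups (median -0.24), and 0 passed the test; 4 were lower at an unadjusted p under 0.05 by limma, where 5.8% of all genes were. The part of cell handling in any of these differences was not tested, since no handling time or batch is given in the sources used here.

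The genes most like the mean profile of the 10 genes over the 6 arrays were Fancc, Pim3, Hrh2, Zfp36 and Rarres2. Likeness was the root mean square difference between centred log2 profiles, among genes that are not dim, and it was 0.035 for Fancc and 0.056 to 0.060 for the others. Zfp36, which encodes the mRNA-destabilising protein tristetraprolin and is itself an immediate early gene, read 9.82, 9.67 and 9.44 in the sufficient and 9.80, 9.45 and 9.41 in the deficient arrays. As in Egr1, Egr3, Nr4a1, Nr4a2 and Junb, replicate 1 was highest in both groups. Pim3, a serine/threonine kinase gene, changed by -0.0016 between the groups.

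Other immediate early genes were read from a list of 40, of which 37 were measured. Of these 37, 2 rose and 0 fell (adjusted over all genes), against 1.44% of all genes higher and 0.766% lower, and the median change was 0.04. Dusp1, a phosphatase that switches off MAP kinases, read 11.88, 11.85 and 11.80 in the sufficient and 12.45, 12.24 and 12.21 in the deficient arrays. All deficient arrays were above all sufficient arrays, and the log2 change of 0.46 ± 0.06 (SE, limma adjusted p = 0.0081) passed in each of 6 fits that omitted 1 array, though not without limma's intensity trend (adjusted p = 0.0743). Dusp6, a phosphatase of ERK, rose by 0.32 ± 0.05 (SE, limma adjusted p = 0.0152). It passed in 3 of those 6 fits, its call being lost on leaving out sufficient replicate 2 or deficient replicate 2 or 3 (adjusted p up to 0.0558) and also without the intensity trend (0.095). Gadd45a, a stress-induced gene of growth arrest, had a change of -0.50, Rgs1, a regulator of G protein signals, of 0.31 and the phosphatase gene Dusp2 of 0.34, and these 3 did not pass (limma adjusted p = 0.0525, 0.0677 and 0.0705).

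Among the genes around the 3 families, 1 of 19 AP-1 partners and 1 of 12 Egr and Nr4a partners passed, where 2.21% of all genes did. Before adjustment, at p under 0.05, limma had 3 of the 19 higher and 3 lower, and 3 of the 12 higher and 0 lower. Over all genes these shares were 8.63% higher and 5.8% lower. Among 19 AP-1 partners and relatives Bach2, a repressor of AP-1-driven genes, fell by 0.36 ± 0.06 (SE, limma adjusted p = 0.0184) and 0 rose; Jdp2, a repressor of the Jun family, was 0.41 higher and missed the threshold (0.0549). Among 12 measured partners and feedback genes of Egr and Nr4a factors Nab1, a corepressor that binds Egr proteins, rose and 0 fell. Nab1 averaged 10.03 ± 0.08 in the sufficient and 10.33 ± 0.01 in the deficient arrays (SD, n = 3 each), with no overlap, a log2 change of 0.31 ± 0.05 (SE, limma adjusted p = 0.0151). The Bach2 and Nab1 calls were lost on leaving out sufficient replicate 2 or deficient replicate 2 or 3 (adjusted p up to 0.0935 and 0.0774) and without the intensity trend (0.1 and 0.104).

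Upstream, 0 of 18 measured genes of the Ras, MAP kinase and SRF route passed, where 2.21% of all genes did, with a median change of 0.0039. Limma gave 2 of them an unadjusted p under 0.05, the ETS factor gene Elk3 (0.19) and Srf (0.14), beside 14.4% of all genes. Among 18 measured calcium and NFAT genes Camk4, a calmodulin-dependent kinase, fell and 0 rose, beside 0.766% of all genes lower and 1.44% higher. Before adjustment, at p under 0.05, limma had 3 of these 18 higher and 2 lower, beside 8.63% and 5.8% of all genes. Camk4 read 7.17, 7.10 and 7.03 in the sufficient and 6.47, 6.56 and 6.66 in the deficient arrays, a log2 change of -0.54 ± 0.08 (SE, limma adjusted p = 0.0116), lost when either group's replicate 2 was left out (adjusted p up to 0.07) and kept without the intensity trend (0.0409). Nfatc1, the NFAT gene induced by its own pathway, had a change of 0.29 (adjusted p = 0.0537), and Ppp3r1, the regulatory subunit of calcineurin, of 0.36 (0.136). Of 17 measured readouts of antigen receptor activation in Treg cells 1 rose and 0 fell, beside 1.44% of all genes higher and 0.766% lower. Their median change was 0.09, and 3 of the 17 had a change below 0, where 47% of all genes did. At an unadjusted p under 0.05 limma had 6 of the 17 higher and 0 lower, beside 8.63% and 5.8% of all genes. Tnfrsf4, the costimulatory receptor OX40, rose by 0.32 ± 0.05 (SE, limma adjusted p = 0.0186), a call lost on leaving out sufficient replicate 2 or deficient replicate 2 or 3 (adjusted p up to 0.0838) and without the intensity trend (0.121). Ctla4 (0.22), Il2 (0.50) and Icos (0.35) did not pass (limma adjusted p = 0.0531, 0.0818 and 0.0831).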

How the data were processed

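The authors deposited 1 log2 intensity per probe set and array, summarised by RMA (background correction, quantile normalization and probe summary) per the submitters' processing notes (version not stated). Biotin-labelled cRNA was made from 6 ug of RNA, per the labels' protocols. That the scale is log2 follows from the values. Scanner files were not used, so neither background nor saturation was read. Of 22690 probe sets 20393 named 1 gene in the platform's annotation, 691 named several and 1606 were not listed; only the first were used.

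The 12394 genes were fitted together in R 4.3.3 with limma 3.58.1 (lmFit, eBayes with an intensity trend), two-sided, unpaired, with no filter. The fit was tested on simulated data. Start regions came from RefSeq (GRCm38.p6). Figures were drawn with matplotlib 3.10.9.

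The members, lists and tests were chosen with earlier results of these data known. The genes named were the 10 members, each list's called genes and up to 3 further with the smallest p, the 5 genes nearest the mean profile, Gata3 and some cell type markers. Other settings tried were a block for the replicate number, no trend, robust variance, no dim genes, renewed quantile normalization, median centring, array weights, other probe set choices, and each array left out.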

Additional observations from a re-analysis of the deposited data

How the results depend on the processing

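The count of immediate early genes past the threshold was 0 in 14 of 15 other settings and 1 with the replicate block. The replicate numbers are not stated to pair mice, and the deviations of same-numbered arrays correlated at 0.039, -0.018 and 0.07 over genes; with that block Egr1 passed (limma adjusted p = 0.0312). Of 149 single values 140 kept their direction and side of the threshold. The replicate block, no trend, robust variance and no dim genes leave the change itself as it was. Under those settings the direction could not turn, so the count of 140 is no measure of how stable the directions are. The sign turned for Fos and Junb with array weights (-0.063 and -0.016). With 1 array left out Fos ran from -0.14 to 0.23, Junb from -0.076 to 0.14 and Egr2 from -0.17 to 0.0053; the cause was not tested. Genes called in all numbered 274, 54 without the intensity trend, 585 with array weights and 62 to 270 with 1 array left out. Nr4a2 had no value in the setting that left out probe sets by the name endings _a_at, _s_at and _x_at. Both of its probe sets end in _a_at, and both are annotated to Nr4a2 alone. The 3 arrays a group limit the precision.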
